A study of Mus musculus with 3 samples.

Results

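The genes described here are 44 mouse genes of the neuronal cytoskeleton and synapse, a set that runs from microtubule and neurofilament proteins through vesicle release and the postsynaptic density to transmitter enzymes, neuronal RNA-binding proteins, surface molecules and neuronal enzymes. Every non-control probe whose annotated accession belongs to one of them was taken, which gave 76 probes for 43 of the 44 genes. No probe was matched to Ina, the neurofilament protein alpha-internexin. The arrays named 18350 genes in all. The cells were C2C12, a mouse myoblast line whose cells fuse into multinucleated myotubes, and RNA was hybridised to one-colour whole mouse genome arrays, 1 array per group. Neurogenic cellulates had, per the labels, received 2 days of 2.5 µM BIO and 7 days of neurogenic medium. The protocol for that culture gives 250 nM reversine for 48 h, then a DMEM/F12 and N2 medium with 1.5 µM all-trans retinoic acid on laminin-coated dishes. BIO cellulates had received 2 days of 2.5 µM BIO, an inhibitor of glycogen synthase kinase, per the labels, although the series text and the treatment protocol both give 10 µM. Both kinds of cellulate came from myotubes formed over 8 days in 2% horse serum, with 10 µM AraC against dividing cells from day 2 to day 4. Those myotubes were then broken up with myoseverin, a microtubule-binding compound, for 48 h at 20 µM by the series text or at 30 µM by the treatment protocol. Myoblasts were untreated C2C12 cells.

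Neurons carry axons and dendrites on a framework of microtubules, held by proteins such as tau and MAP2, and of neurofilaments built from light, medium and heavy chains. Transmitter is released when SNARE proteins on the vesicle and the plasma membrane join under the control of the calcium sensor synaptotagmin, and it is received by receptors anchored in a dense scaffold. Outside the nervous system many of these genes are held down by the repressor REST, which binds a long DNA element called RE1. Several of them, Ncam1 and Vamp2 among them, are also used by muscle cells.

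With 1 array per group there was no replicate check, so the differences below carry no culture-to-culture error and no p-value. The sources do not say how many cultures stand behind an array. A level is the log2 signal of a probe minus the log2 of the 75th percentile of its array, so that 0 is a signal at that percentile, and a gene was called measured on an array where the scanner software called its probe well above background. Levels are compared between arrays for the same probe only. Of 43379 non-control spots, 19812 (45.7%) were well above background in neurogenic cellulates, 20358 (46.9%) in BIO cellulates and 22014 (50.7%) in myoblasts, and 0 were saturated. The lowest level called well above background was -2.57, -2.73 and -3.73 in these arrays in the same order. Of 245 probes spotted 10 times each, those with all unflagged spots well above background were used for spot error. They numbered 124 in neurogenic cellulates, 117 in BIO cellulates and 127 in myoblasts. For such probes, 95% of differences between single spots of 1 probe would lie within 1.30-fold for neurogenic over BIO cellulates. The limit was 1.34-fold for neurogenic cellulates over myoblasts and 1.38-fold for BIO cellulates over myoblasts. These limits cover spot-to-spot error only, and not that of dim probes. The RNA came from whole cultures, so fewer cells expressing a gene and less of its RNA per cell cannot be told apart.

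Of the 43 genes with a probe, 24 (55.8%) were measured in neurogenic cellulates, 26 (60.5%) in BIO cellulates and 29 (67.4%) in myoblasts. Over all named genes those shares were 62.5%, 63.9% and 67.5%. The difference in these shares was not tested. In all, 22 genes were measured on all 3 arrays, and 11 on none. The genes below background throughout were Gap43, Nefl, Syn2, Syp, Snap25, Nsg2, Nlgn1, Gria2, Gad1, Gad2 and Elavl2. They include the growth cone protein GAP-43, the synaptic vesicle protein synaptophysin and the SNARE protein SNAP-25. Their 17 probes lay between -4.89 and -2.66 in neurogenic cellulates, between -5.05 and -2.41 in BIO cellulates and between -6.06 and -3.52 in myoblasts. The plot of gene levels by array shows them as open symbols.

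**Figure D1:**
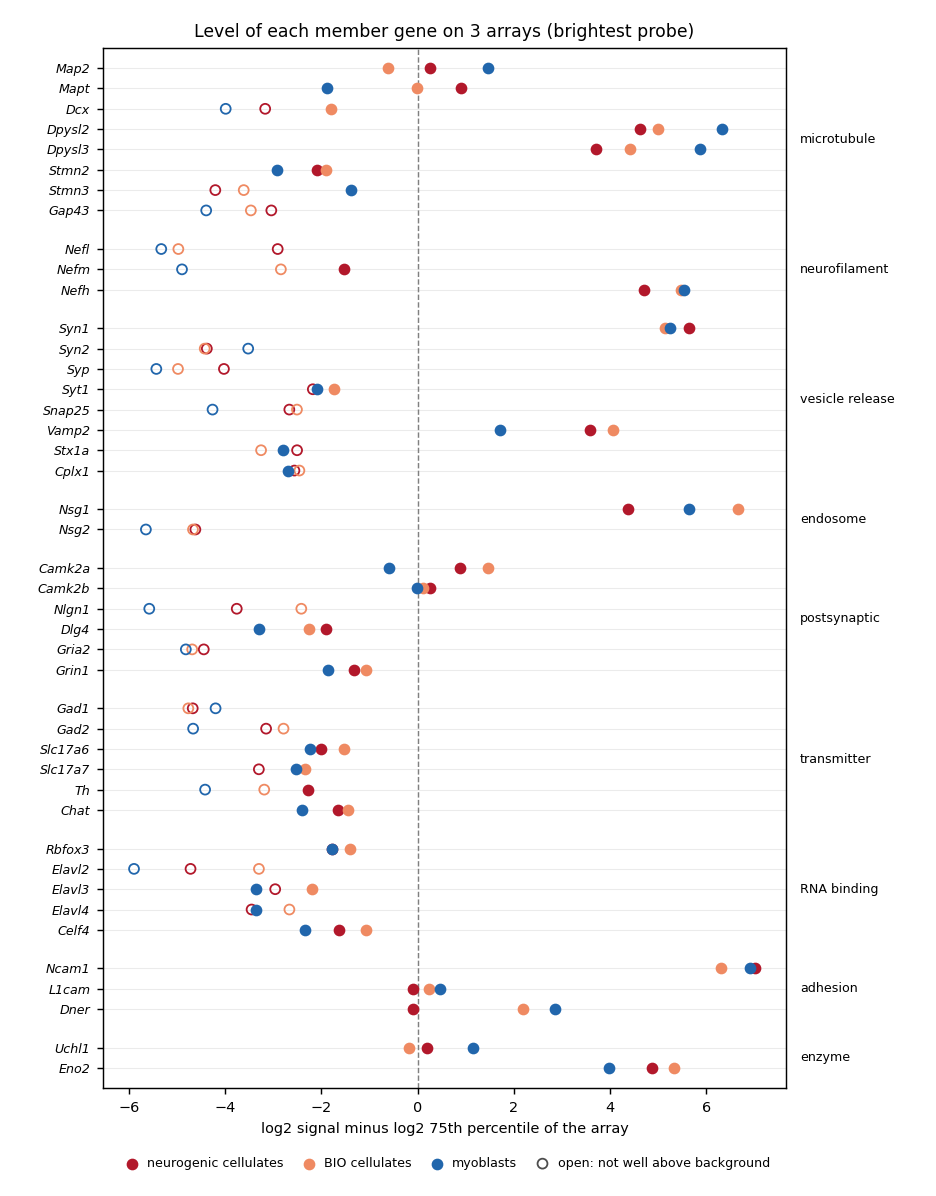
Level of the brightest probe of each of 43 neuronal genes (log2 signal minus the log2 75th percentile of the array) in neurogenic cellulates, BIO cellulates and myoblasts, 1 array each, grouped by role. Open symbols were not well above background; 11 genes are open on all 3 arrays, and Mapt, Map2, Vamp2 and Dner are among those whose filled symbols lie far apart.

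Among the microtubule proteins the members moved in opposite directions. Mapt, which encodes tau, the microtubule-binding protein of axons, had 3 probes that were measured on all arrays. Its brightest probe stood at 0.91 in neurogenic cellulates, -0.01 in BIO cellulates and -1.88 in myoblasts. The order was the same on the second probe, at 0.64, -0.04 and -1.84, and on the third, at -0.38, -1.22 and -2.83. Both cellulate cultures were thus above myoblasts on every Mapt probe. On the brightest, neurogenic cellulates were 6.94-fold and BIO cellulates 3.65-fold above myoblasts, and neurogenic cellulates were 1.90-fold above BIO cellulates.

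Map2, which encodes the dendritic microtubule-associated protein, ran the other way, with levels of 0.26 in neurogenic cellulates, -0.60 in BIO cellulates and 1.47 in myoblasts. Myoblasts had the highest value and BIO cellulates the lowest. The signal was 2.31-fold lower in neurogenic cellulates than in myoblasts and 4.20-fold lower in BIO cellulates than in myoblasts. Between the cellulates it was 1.82-fold higher in the neurogenic culture.

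Dpysl2 and Dpysl3 encode collapsin response mediator proteins, which bind tubulin and act in axon guidance. Dpysl2 stood at 4.62 in neurogenic cellulates, 4.99 in BIO cellulates and 6.33 in myoblasts, and its second probe at 0.42, 0.74 and 1.54. Dpysl3 stood at 3.71, 4.42 and 5.88 in the same order. Both genes were lowest in neurogenic cellulates and highest in myoblasts. Dpysl2 was 3.26-fold lower in neurogenic cellulates and 2.53-fold lower in BIO cellulates than in myoblasts, and Dpysl3 4.49-fold and 2.75-fold lower.

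Stmn2 and Stmn3 belong to the stathmins, which promote the disassembly of microtubules. Stmn2 was close to background on all arrays, at -2.10 in neurogenic cellulates, -1.90 in BIO cellulates and -2.92 in myoblasts, which made BIO cellulates 2.03-fold and neurogenic cellulates 1.78-fold higher than myoblasts. Stmn3 was measured in myoblasts only, at -1.38, against -4.20 in neurogenic cellulates and -3.61 in BIO cellulates. It was therefore at least 2.29-fold lower in neurogenic cellulates and at least 2.56-fold lower in BIO cellulates. Each bound was set by the lowest level called well above background on the cellulate array in question. Some probes above that level were still not called, such as Syt1 at -2.18 in neurogenic cellulates, so the bounds are not strict.

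Dcx encodes doublecortin, a microtubule protein of migrating young neurons. It was measured on 1 probe and 1 array, at -1.80 in BIO cellulates, against -3.17 in neurogenic cellulates and -3.99 in myoblasts. BIO cellulates were at least 3.82-fold higher than myoblasts, and neurogenic cellulates at least 1.71-fold lower than BIO cellulates. Its other probes were below background on every array, between -4.63 and -3.00 in neurogenic cellulates, between -4.75 and -3.34 in BIO cellulates and between -4.93 and -3.90 in myoblasts. The Dcx value thus rests on 1 of 3 probes.

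The neurofilament chains were uneven. Nefm, the medium chain, was measured only in neurogenic cellulates, at -1.53, against -2.84 in BIO cellulates and -4.89 in myoblasts. It was at least 2.30-fold higher in neurogenic than in BIO cellulates and at least 4.60-fold higher than in myoblasts. Nefl, the light chain, lay below background on all arrays, at -2.91 in neurogenic cellulates, -4.97 in BIO cellulates and -5.33 in myoblasts, so no fold is given.

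Nefh, the heavy chain, was bright on all arrays, at 4.70 in neurogenic cellulates, 5.47 in BIO cellulates and 5.54 in myoblasts. On that probe neurogenic cellulates were 1.71-fold lower than BIO cellulates and 1.79-fold lower than myoblasts. The second Nefh probe, at -1.88 in neurogenic cellulates, -1.71 in BIO cellulates and -3.26 in myoblasts, put both cellulates above myoblasts, by 2.60-fold for the neurogenic and 2.93-fold for the BIO culture. The 2 probes therefore gave opposite answers for neurogenic cellulates against myoblasts. For BIO cellulates the brightest probe was 1.05-fold below myoblasts, within the 1.38-fold limit of spot error.

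**Figure D2:**
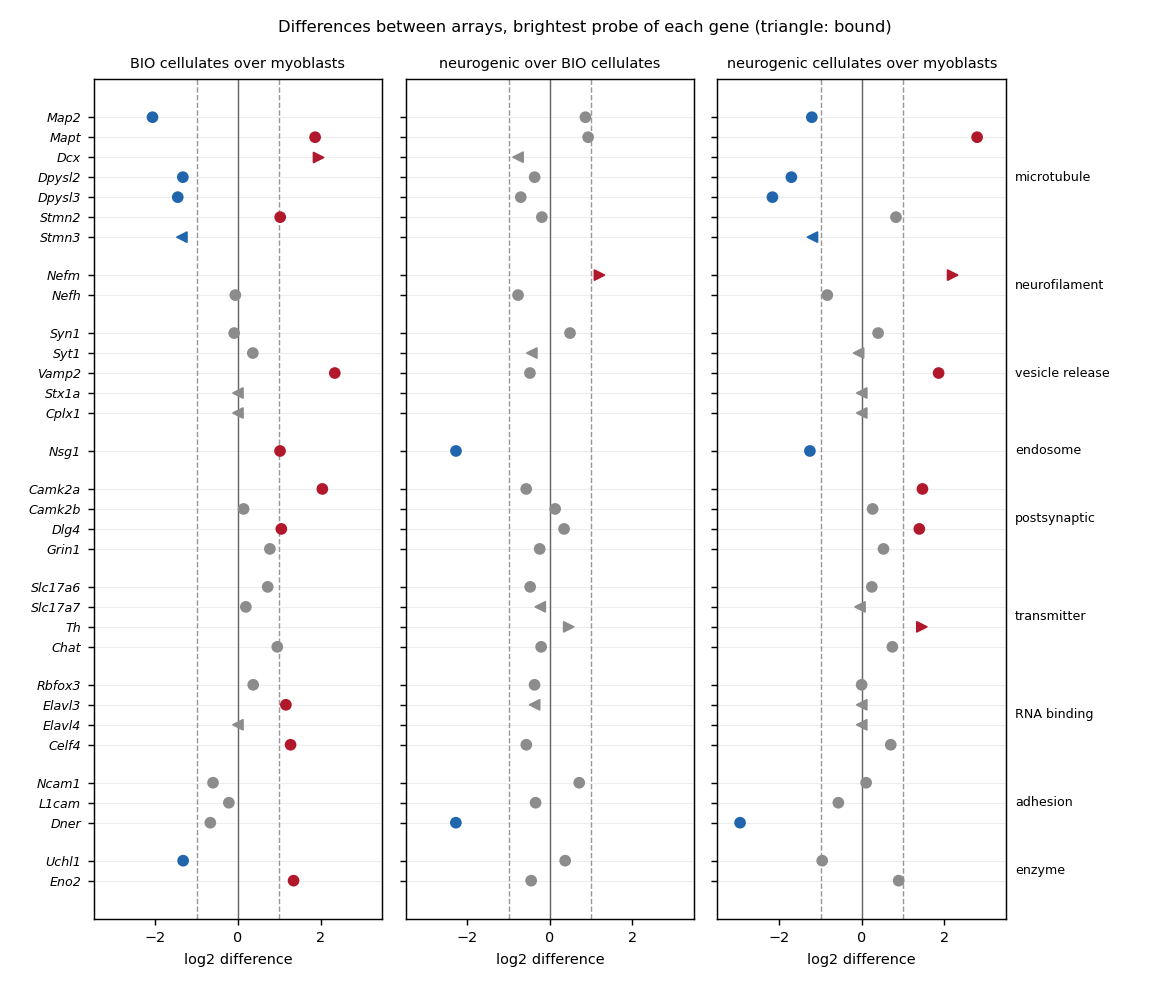
Log2 difference of the brightest probe for each neuronal gene measured on at least 1 of the arrays compared, with BIO cellulates over myoblasts, neurogenic over BIO cellulates and neurogenic cellulates over myoblasts in separate panels; triangles are bounds and dashed lines mark 2-fold. The middle panel is the narrowest, with Nefm above and Nsg1 and Dner below 2-fold.

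Of the genes of vesicle release, Vamp2 was the one that passed 2-fold. It encodes synaptobrevin 2, the SNARE protein of the synaptic vesicle. Its brightest probe stood at 3.58 in neurogenic cellulates, 4.06 in BIO cellulates and 1.72 in myoblasts, and the next at 3.14, 3.58 and 1.53. On the brightest probe neurogenic cellulates were 3.64-fold and BIO cellulates 5.08-fold above myoblasts, while neurogenic cellulates were 1.40-fold below BIO cellulates. The third probe went the other way against myoblasts, with -0.90, -0.98 and -0.46 in the same order of cultures.

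Syn1, which encodes synapsin I, a protein that tethers vesicles in the terminal, was bright everywhere. It stood at 5.64 in neurogenic cellulates, 5.15 in BIO cellulates and 5.24 in myoblasts, and its second probe at -1.0, -0.42 and -1.03. Neither probe reached 2-fold in any comparison, and they had opposite signs in neurogenic over BIO cellulates and in BIO cellulates over myoblasts. Syt1, the calcium sensor synaptotagmin 1, was near background on 1 of 5 probes, at -2.18 in neurogenic cellulates, where it was not measured, -1.74 in BIO cellulates and -2.10 in myoblasts. Its other 4 probes were below background on all arrays. The SNARE gene Stx1a and the complexin gene Cplx1 were measured only in myoblasts, at -2.80 and -2.68, below or close to the lowest measurable level of either cellulate array, so no fold could be given.

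Nsg1 encodes a small endosomal protein of neurons that takes part in receptor recycling. Its brightest probe stood at 4.38 in neurogenic cellulates, 6.65 in BIO cellulates and 5.64 in myoblasts, and its second probe at 1.71, 3.73 and 2.76. On both probes BIO cellulates were highest and neurogenic cellulates lowest. The brightest probe was 4.85-fold lower in neurogenic than in BIO cellulates, 2.39-fold lower in neurogenic cellulates than in myoblasts and 2.03-fold higher in BIO cellulates than in myoblasts. On the second probe those folds were 4.05, 2.07 and 1.96 in the same directions.

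On the postsynaptic side, Camk2a encodes the alpha subunit of a calcium- and calmodulin-dependent kinase that is abundant at excitatory synapses. Its brightest probe stood at 0.89 in neurogenic cellulates, 1.46 in BIO cellulates and -0.58 in myoblasts, which made neurogenic cellulates 2.77-fold and BIO cellulates 4.13-fold higher than myoblasts. The second probe was measured in the cellulates, at -1.31 and -0.87, but not in myoblasts, at -4.11, and gave bounds of at least 5.36-fold and at least 7.30-fold. Both probes thus put the cellulates above myoblasts. Camk2b, the beta subunit, differed by at most 1.20-fold between any arrays, with 0.25 in neurogenic cellulates, 0.12 in BIO cellulates and -0.01 in myoblasts.

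Dlg4 encodes PSD-95, the scaffold of the postsynaptic density. It was close to background, at -1.91 in neurogenic cellulates, -2.25 in BIO cellulates and -3.30 in myoblasts, and neurogenic cellulates were 2.63-fold and BIO cellulates 2.07-fold above myoblasts. Its second probe, at -2.62, -2.47 and -3.31, was 1.80-fold higher in BIO cellulates than in myoblasts and was not measured in neurogenic cellulates. Grin1, the obligatory subunit of NMDA receptors, stood at -1.33 in neurogenic cellulates, -1.08 in BIO cellulates and -1.85 in myoblasts, and stayed below 2-fold in each comparison.

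Of the genes that define transmitter identity, Th alone passed 2-fold. It encodes tyrosine hydroxylase, which makes the precursor of dopamine. It was measured in neurogenic cellulates only, at -2.28, against -3.19 in BIO cellulates and -4.41 in myoblasts. It was at least 2.74-fold higher in neurogenic cellulates than in myoblasts and at least 1.37-fold higher than in BIO cellulates, from a signal just above the background limit of that array. The glutamate transporter genes Slc17a6 and Slc17a7 and the acetylcholine-synthesising gene Chat did not reach 2-fold, with levels from -3.30 to -1.65 in neurogenic cellulates, from -2.34 to -1.44 in BIO cellulates and from -2.53 to -2.24 in myoblasts on their brightest probes. Chat came nearest, at 1.94-fold higher in BIO cellulates than in myoblasts. Its second probe was below background on all arrays, and that of Slc17a6 was measured in myoblasts only, at -2.40.

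The promoter window of Th is shown because Th was one of 2 neuronal genes whose window held CTTTGA, the core of the TCF/LEF element through which the Wnt pathway, in which glycogen synthase kinase acts, reaches its target genes. RefSeq windows run from 250 bases before to 50 bases after a gene's start on GRCm38.p6. The Th window lies at chr7:142899946-142900245 on the minus strand, and the capitals mark the match, which starts at position -48 from the gene's start.
Th: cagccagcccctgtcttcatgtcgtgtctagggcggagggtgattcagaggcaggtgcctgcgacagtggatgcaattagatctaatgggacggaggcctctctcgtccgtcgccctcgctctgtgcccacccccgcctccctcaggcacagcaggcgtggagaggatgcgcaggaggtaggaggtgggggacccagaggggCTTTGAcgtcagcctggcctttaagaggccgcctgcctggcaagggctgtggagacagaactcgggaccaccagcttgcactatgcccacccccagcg
The other such gene was Stmn3. CTTTGA was in 2 of the 47 windows of the neuronal genes (4.26%) against 16.0% of all windows, so it was rarer here than at large. The match describes letters in the window, not binding, and action of the Wnt pathway on Th was not tested.

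The neuronal RNA-binding proteins lay near background. Celf4, a translational regulator of excitatory neurons, stood at -1.63 in neurogenic cellulates, -1.06 in BIO cellulates and -2.34 in myoblasts, with BIO cellulates 2.42-fold and neurogenic cellulates 1.63-fold above myoblasts. Elavl3, which encodes the neuronal RNA stabiliser HuC, was measured in BIO cellulates at -2.20 and in myoblasts at -3.36, a 2.24-fold difference, and not in neurogenic cellulates, at -2.96. Elavl4, which encodes the related HuD, was measured only in myoblasts, at -3.36, below the measurable range of the cellulate arrays, and its second probe was below background on all arrays. Rbfox3, which encodes the neuronal nuclear antigen NeuN, stood at -1.77 in neurogenic cellulates, -1.40 in BIO cellulates and -1.77 in myoblasts. No difference of its brightest probe exceeded 1.30-fold. The second Rbfox3 probe was measured in BIO cellulates alone, at -1.64, against -2.20 in neurogenic cellulates and -3.46 in myoblasts. It gave a bound of at least 3.53-fold for BIO cellulates over myoblasts, where the brightest probe gave 1.29-fold.

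Among the surface molecules Dner stood apart. It encodes a transmembrane protein with EGF-like repeats that binds Notch and is best known from Purkinje cells. It stood at -0.09 in neurogenic cellulates, 2.19 in BIO cellulates and 2.86 in myoblasts. Neurogenic cellulates were 4.86-fold below BIO cellulates and 7.73-fold below myoblasts, and BIO cellulates were 1.59-fold below myoblasts. A second Dner probe was below background on all arrays, at -4.40, -4.58 and -5.29, so the difference rests on 1 probe.

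The Dner window is shown because Dner had the largest measured difference among these genes and 3 motif matches. It lies at chr1:84696172-84696471 on the minus strand, and the capitals mark, from left to right, the left arm of RE1, TTCAGCACC, and the hexamer AGGTCA, present in 2 copies. AGGTCA is a half-site of nuclear receptors in general, retinoic acid receptors among them, and was in 16.3% of all windows.
Dner: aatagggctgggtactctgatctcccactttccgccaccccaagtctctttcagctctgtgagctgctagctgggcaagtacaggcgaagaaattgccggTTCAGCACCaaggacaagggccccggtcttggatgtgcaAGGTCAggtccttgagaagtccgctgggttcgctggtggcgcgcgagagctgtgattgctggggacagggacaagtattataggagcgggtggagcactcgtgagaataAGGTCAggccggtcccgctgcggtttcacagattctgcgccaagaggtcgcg
The copies of AGGTCA start at positions -111 and -2 from the gene's start.

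Ncam1 encodes the neural cell adhesion molecule, which occurs in several isoforms, and its 6 probes did not move together. The brightest stood at 7.02 in neurogenic cellulates, 6.31 in BIO cellulates and 6.91 in myoblasts, and the next at 6.17, 5.39 and 6.41. On both, BIO cellulates were lowest. The third stood at 5.56, 5.57 and 4.38, which made neurogenic cellulates 2.26-fold and BIO cellulates 2.28-fold higher than myoblasts, whereas the second was 2.03-fold lower in BIO cellulates than in myoblasts. The other 3 probes, at 1.89, 1.74 and 1.28, at 1.06, 0.86 and 0.86, and at 0.46, 0.57 and 0.18, stayed within 1.53-fold of myoblasts. L1cam, an adhesion molecule of growing axons, stood at -0.10 in neurogenic cellulates, 0.24 in BIO cellulates and 0.47 in myoblasts and was below 2-fold throughout.

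**Figure D3:**
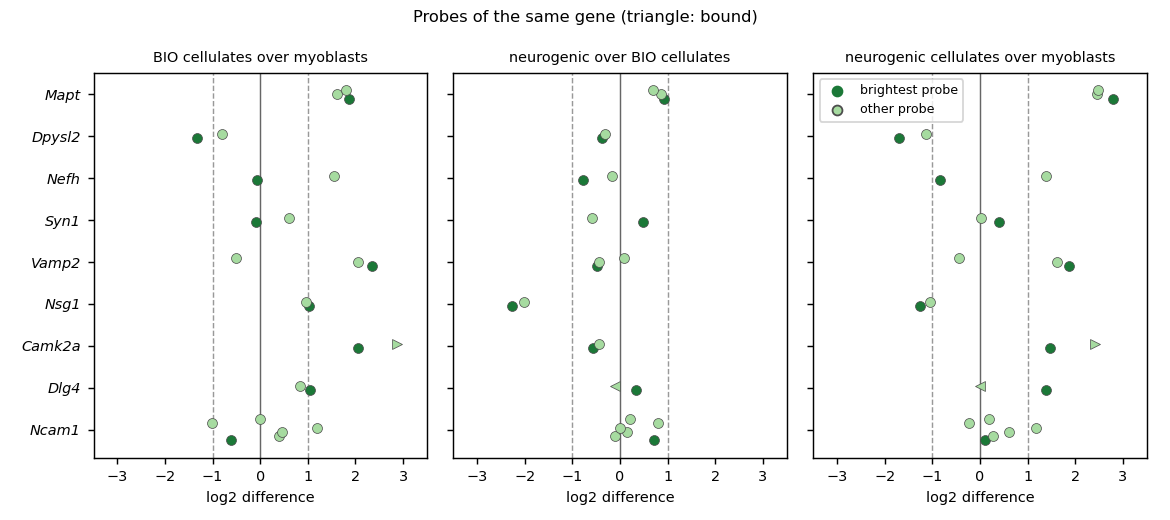
Log2 difference of each probe of the 9 neuronal genes with several probes measured on both arrays of a comparison, in 3 panels for BIO cellulates over myoblasts, neurogenic over BIO cellulates and neurogenic cellulates over myoblasts; dark points are the brightest probe, triangles bounds and dashed lines 2-fold. The Mapt and Nsg1 probes lie together, while the Nefh, Vamp2 and Ncam1 probes lie on both sides of 0 against myoblasts.

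Across the set, 8 genes had at least 2 probes measured on both arrays for neurogenic over BIO cellulates, 7 for neurogenic cellulates over myoblasts and 8 for BIO cellulates over myoblasts. All probes of a gene had the same sign for 5 of 8, 4 of 7 and 4 of 8 genes in these comparisons. The plot of probes of the same gene shows that Nefh, Vamp2 and Ncam1 were split in both comparisons with myoblasts.

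The neuronal enzymes went in opposite directions. Eno2, neuron-specific enolase of glycolysis, stood at 4.88 in neurogenic cellulates, 5.33 in BIO cellulates and 3.99 in myoblasts, with neurogenic cellulates 1.86-fold and BIO cellulates 2.54-fold above myoblasts. A second Eno2 probe was below background on all arrays, at -2.79, -2.78 and -5.56, so the difference rests on 1 of 2 probes. Uchl1, a ubiquitin hydrolase abundant in neurons, stood at 0.19, -0.18 and 1.15 in the same order, with neurogenic cellulates 1.94-fold and BIO cellulates 2.51-fold below myoblasts.

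Taking the genes as a set, neurogenic over BIO cellulates compares the culture after reversine and neurogenic medium with the culture before them. Reversine, retinoic acid, the N2 medium, laminin and the added days in culture cannot be told apart. No array used here has any of them without the others. Of 28 genes measured on at least 1 of these arrays, 1 was at least 2-fold higher, Nefm, and 2 were at least 2-fold lower, Nsg1 and Dner. The shares of all named genes were 4.16% on the higher and 1.80% on the lower side of 2-fold. Among the 22 neuronal genes measured on both arrays, 0 were at least 2-fold higher and 2 lower, against 2.45% and 1.41% of all genes measured on both. Their median log2 difference was -0.36, against -0.18 over all genes. The share of neuronal genes on the higher side was thus near that of genes at large, and Nefm, the gene in question, was under 2-fold with normexp background correction.

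BIO cellulates over myoblasts compares cells after fusion, AraC, myoseverin and BIO with the starting line. These steps cannot be told apart, since neither untreated myotubes nor cellulates kept free of BIO are among the arrays used here. Of 30 neuronal genes compared, 10 were at least 2-fold higher (Mapt, Dcx, Stmn2, Vamp2, Nsg1, Camk2a, Dlg4, Elavl3, Celf4 and Eno2) and 5 at least 2-fold lower (Map2, Dpysl2, Dpysl3, Stmn3 and Uchl1). Over all named genes the shares were 11.2% higher and 6.01% lower. Among the 25 measured on both arrays, 9 were higher and 4 lower, against 8.42% and 6.13% of all genes measured on both. The median log2 difference of these 25 was 0.37, against 0.01 over all genes, and it turned to -0.35 when arrays were scaled to their median, a scaling that moved all genes by -0.72. With that scaling, 4 members were at least 2-fold higher and 7 lower, and with quantile normalisation 6 were higher and 5 lower.

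Neurogenic cellulates over myoblasts spans all steps. Of 31 neuronal genes, 6 were at least 2-fold higher (Mapt, Nefm, Vamp2, Camk2a, Dlg4 and Th) and 6 lower (Map2, Dpysl2, Dpysl3, Stmn3, Nsg1 and Dner), against 12.1% and 10.0% of all named genes. Among the 22 measured on both arrays, 4 were higher and 5 lower, against 9.35% and 11.0%. The median log2 difference of these 22 was 0.25, against -0.15 over all genes, and -0.48 with scaling to the array median, which moved all genes by -0.73. With that scaling 3 were higher and 9 lower. The comparisons with myoblasts share that 1 array, and the cellulate comparisons share the BIO array.

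Low signals bear on these counts. Genes below background on both arrays had a median log2 difference of 1.14 in neurogenic cellulates over myoblasts and of 1.01 in BIO cellulates over myoblasts. The neuronal genes below background on both had medians of 1.26 and 0.98. Among all genes measured on both arrays and lying below -2 in myoblasts, 40.9% were at least 2-fold higher in neurogenic cellulates and 34.6% in BIO cellulates. The neuronal genes in that range numbered 5, with 1 at least 2-fold higher, in the neurogenic comparison and 8, with 4 at least 2-fold higher, in the BIO comparison. In BIO cellulates the 4 were Stmn2, Dlg4, Elavl3 and Celf4, so their values lie in the range where 34.6% of genes passed 2-fold. Stmn2, Dlg4 and Elavl3 lay at -2.92, -3.30 and -3.36 in myoblasts. The lowest level called in BIO cellulates was -2.73, so measurement on both arrays fixed their direction as higher. The same holds for Dlg4 in neurogenic cellulates, where the lowest level called was -2.57. The 4 genes in BIO cellulates over myoblasts fell under 2-fold with array median scaling, quantile normalisation and normexp background correction. So did Dlg4 and Th in neurogenic cellulates over myoblasts. Where the myoblast level was 0 or above, 3.40% of all genes were higher and 15.8% lower in neurogenic cellulates, and 1 higher and 5 lower of 12 neuronal genes. In BIO cellulates the shares there were 2.90% higher and 8.71% lower, and the neuronal genes 3 higher and 4 lower of 12. The plot of differences by level shows the upward spread at the dim end.

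**Figure D4:**
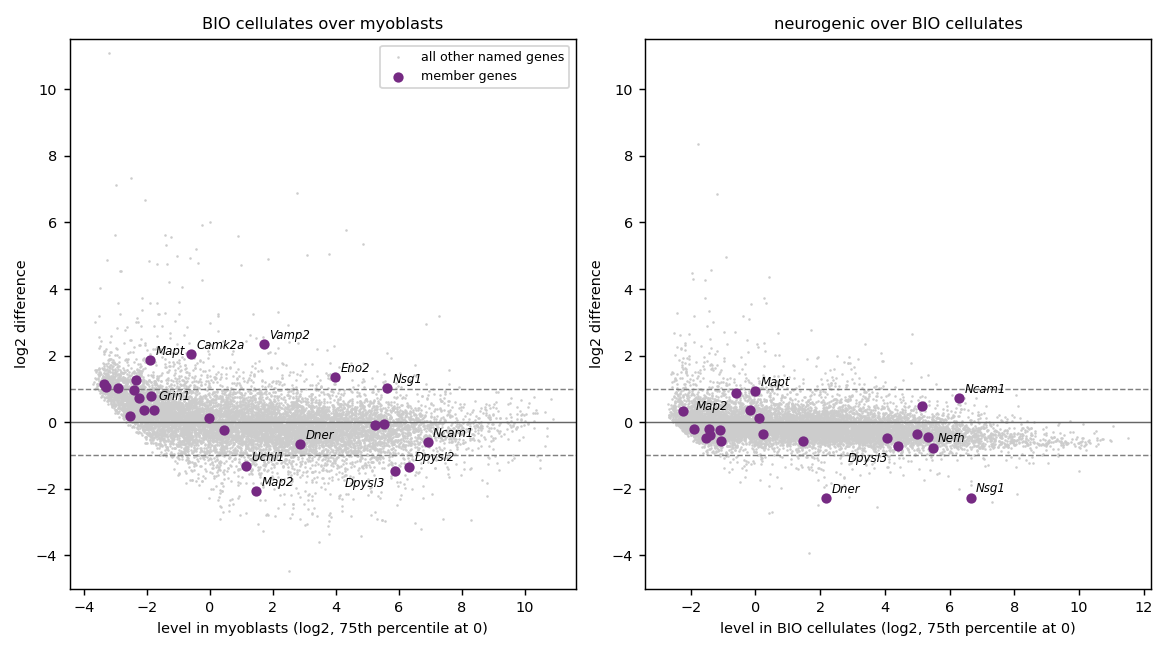
Log2 difference against the level of the gene on the array in the denominator, for all named genes (grey) and the neuronal genes (purple) measured on both arrays, for BIO cellulates over myoblasts and neurogenic over BIO cellulates; dashed lines mark 2-fold. Among dim genes in myoblasts the grey points spread upward, and Vamp2, Eno2, Nsg1, Map2, Dpysl2 and Dpysl3 lie among the bright genes.

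A wider list of 86 other neuronal genes, 81 with a probe, was set beside the members. In neurogenic over BIO cellulates 0 of 49 were at least 2-fold higher and 1 lower, against 4.16% and 1.80% of all named genes. In neurogenic cellulates over myoblasts 14 of 52 were higher and 7 lower, against 12.1% and 10.0%. In BIO cellulates over myoblasts 11 of 53 were higher and 4 lower, against 11.2% and 6.01%. The medians of those measured on both arrays were -0.14, 0.19 and 0.26, against -0.18, -0.15 and 0.01 over all genes. Among genes measured on both arrays, the largest differences above myoblasts were those of the adhesion gene Nrcam, at log2 2.89 in neurogenic and 2.27 in BIO cellulates, and of the vesicle SNARE gene Vamp1, at 2.70 and 2.86. Cntn1, which encodes the adhesion molecule contactin 1, followed at 1.75 and 1.88. Its myoblast level of -3.22 lay below the lowest level called in either cellulate array. In neurogenic cellulates the active zone gene Rims1 reached 1.78, and in BIO cellulates Gabbr1, a subunit of the GABA-B receptor, reached 1.61. Below myoblasts stood Basp1, a growth cone protein, at -2.01 in neurogenic and -1.23 in BIO cellulates, the doublecortin-like kinase gene Dclk1 at -1.80 and -1.11, and the microtubule-associated protein gene Map1b at -1.62 and -1.64. The sodium channel gene Scn2a, at -1.39 in neurogenic cellulates, and the synuclein gene Sncg, at -1.0 in BIO cellulates, completed the 4 lowest measured on both arrays. Kif5a, a neuronal kinesin chosen after its values were seen, was below background in myoblasts and gave larger bounds, of at least log2 3.07 in neurogenic and 3.20 in BIO cellulates. Sncg was below background in neurogenic cellulates, with a bound of -1.57 against myoblasts. Dlgap1, a postsynaptic scaffold gene, was the one lower between the cellulates, below background in the neurogenic culture with a bound of -1.05. Between the cellulates the largest measured values were smaller, at 0.66 for the granin gene Chgb, 0.62 for Nrcam, 0.51 for Celf5 and 0.49 for Nlgn2 on the higher side. On the lower side they were -1.0 for Ddc, an enzyme of dopamine and serotonin synthesis, which was just short of 2-fold, -0.78 for Basp1, -0.72 for Snap91 and -0.69 for Dclk1.

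The repressors of neuronal genes were measured as well. Rest stood at -1.17 in neurogenic cellulates, -2.45 in BIO cellulates and -3.19 in myoblasts, a log2 difference of 1.28 for neurogenic over BIO cellulates, 2.03 for neurogenic cellulates over myoblasts and 0.75 for BIO cellulates over myoblasts. On that probe, the brightest of 2, the Rest level was thus highest in the neurogenic culture. Its BIO and myoblast levels both lay below -2. Of all genes that low in BIO cellulates and measured on both arrays, 9.91% were at least 2-fold higher in neurogenic cellulates. For genes that low in myoblasts the share was 40.9%. The Rest level in myoblasts also lay below the lowest level called in either cellulate array. Measurement on both arrays therefore fixed the direction of Rest over myoblasts as higher. Ptbp1, a splicing repressor that holds down neuronal exons in other cells, stood at 4.97, 5.08 and 6.61, and its neuronal relative Ptbp2 at 1.24, 1.45 and 0.24, in the same order of cultures. Against myoblasts Ptbp1 was lower by log2 -1.64 in neurogenic and -1.53 in BIO cellulates, and Ptbp2 higher by 1.00 and 1.21. Srrm4, a splicing activator of neuronal exons, and Rcor2, a partner of REST, differed by less than 2-fold in every comparison, with log2 values of 0.07 and 0.12 in neurogenic cellulates over myoblasts, -0.64 and -0.52 in neurogenic over BIO cellulates, and 0.71 and 0.63 in BIO cellulates over myoblasts. Rcor1, another partner, was below background in BIO cellulates and measured in myoblasts at -1.84, a bound of log2 -0.76, and its probes disagreed on background in neurogenic cellulates.

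The RE1 element bound by REST was searched for in the promoter windows, which were at hand for 30 of the 44 genes, in 47 windows that overlap where a gene has several starts. Its left arm, TTCAGCACC, was in 4 of the 47 windows (8.51%) against 122 of all 32851 windows (0.371%), and each of the 4 came from a different gene. The stretches around them are shown because they let the matches be compared, with the match in capitals and all read along the gene's own strand. They lie on GRCm38.p6 at chr1:84696340-84696379 for Dner, chr3:26154108-26154147 for Nlgn1, chr11:32000491-32000530 for Nsg2 and chrX:20921119-20921158 for Syn1, with Nsg2 on the plus strand and the rest on the minus strand.
Dner: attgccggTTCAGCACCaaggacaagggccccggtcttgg
Nlgn1: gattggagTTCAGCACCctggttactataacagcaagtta
Nsg2: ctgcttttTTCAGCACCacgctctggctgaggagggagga
Syn1: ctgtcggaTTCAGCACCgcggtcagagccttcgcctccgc
The match begins 150 bases before the gene's start in Dner, 153 in Nlgn1, 201 in Nsg2 and 232 in Syn1. On the arrays Nlgn1 and Nsg2 were below background throughout. Syn1 was bright throughout on its brightest probe but not on its other probe. Dner, on its brightest probe, was measured on every array and was lower in neurogenic cellulates than in the other cultures. These matches are descriptions of letters in the window, not of binding.

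The other motifs were searched on both strands in the same windows. The right arm of RE1, GGACAGC, was in 3 windows (6.38%, Gad2, Gria2 and Map2) against 6.56% of all windows. CTTTGA was in 2 (4.26%) against 16.0%, and AGGTCA in 5 (10.6%, from Dlg4, Dner, Elavl4 and Syt1) against 16.3%. The E-box CAGCTG, which myogenic factors such as MyoD bind and which reads the same on both strands, was in 12 (25.5%) against 16.3%, in 9 genes. The windows of the neuronal genes had a median GC content of 57.0% against 52.7% for all windows, and the shares were not adjusted for this.

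Markers of other cell types moved over the same arrays. Of 13 muscle genes with a probe, 12 were measured on all arrays and Myf5 on none. Their median log2 difference was -0.35 for neurogenic over BIO cellulates, 1.88 for neurogenic cellulates over myoblasts and 1.13 for BIO cellulates over myoblasts. At least 2-fold higher were 1, 7 and 6 of them, and at least 2-fold lower 0, 1 and 1. Over all named genes compared, the shares were 4.16%, 12.1% and 11.2% higher and 1.80%, 10.0% and 6.01% lower, in the same order. The muscle genes that were higher included the troponin gene Tnnt3, at log2 6.28 in neurogenic and 6.89 in BIO cellulates over myoblasts. The desmin gene Des was also higher, at 4.21 and 3.61. The lower one was the cadherin gene Cdh15, at -1.70 in neurogenic and -1.11 in BIO cellulates over myoblasts. Tnnt1, another troponin gene, and Myod1, the myogenic regulator, were below 2-fold in both, at 0.11 and -0.03 in neurogenic and 0.84 and 0.36 in BIO cellulates. Of the neural progenitor genes, Sox2, Neurod1 and Prom1 were below background on all arrays, 0 of 7 compared were at least 2-fold higher in neurogenic cellulates over BIO cellulates or over myoblasts, and 1 of 7 (Hes5, log2 1.07) in BIO cellulates over myoblasts. Of the glial genes, Slc1a3 and Olig1 were among those below background on all arrays. Those at least 2-fold higher numbered 2 of 9 compared in neurogenic over BIO cellulates, Pmp22 at 1.22 and Ngfr at 1.11. In neurogenic cellulates over myoblasts they numbered 3 of 10, where Aldh1l1 at 2.25 joined Pmp22 and Ngfr. In BIO cellulates over myoblasts they numbered 2 of 11, Aldh1l1 at 1.40 and Mog at a bound of 1.59. The myoblast level of Aldh1l1, -2.84, lay below the lowest level called in either cellulate array. Measurement on both arrays therefore fixed its direction over myoblasts as higher. Mog was below background in myoblasts, so its bound could lie on the higher side only. Of the fibroblast genes, Dcn was higher in neurogenic cellulates, by 2.69 over BIO cellulates and 2.72 over myoblasts, Col1a1 was lower than in myoblasts, by -1.70 in neurogenic and -1.25 in BIO cellulates, and Pdgfra and Lum were below background on all arrays. The part of these cell types in the neuronal values was not tested.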

How the data were processed

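Arrays of design 014868 were quantified with Agilent Feature Extraction 10.7.3.1, and per the file headers the deposited processed intensity of each spot is a linear, background-subtracted signal, with mm9 as build. The authors' deposited table of log2 values equals the log2 intensity plus a constant per array (0.23 in neurogenic cellulates, 0.67 in BIO cellulates and 0.00 in myoblasts), with column medians of 7.88, 7.77 and 7.42. It was used as an alternative. The labels give 200 ng of RNA, labelled with Cy3.

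Control and flagged spots were left out, spots of a probe were averaged as log2, and each array was scaled to the 75th percentile of its non-control spots (156, 115 and 181 intensity units in the same order). Of 41174 probes, 26918 were matched by accession to the RefSeq gene table of GRCm38.p6. A gene took its brightest probe by mean over the arrays. Where 1 of the 2 arrays was below background, a fold is a bound: the measured level minus the dim array's lowest level called above background, or minus the dim probe's own level if that was higher. Since some probes above that lowest level were not called, these bounds are not strict. Where a bound came out under 1-fold, the log2 value was taken as 0. A gene counted as different at 2-fold or more, and no test was run. Neither was a slide block, since all 3 arrays were on 1 slide. Columns of other samples numbered 0.

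Values are given array by array for each gene at 2-fold or more in any comparison or with probes that disagree. Other members are given by range and status, and from the wider list the 4 largest each way among genes measured on both arrays. The members and all lists were chosen with earlier results of these data known. Alternatives were array median scaling, quantile normalisation, normexp background correction (limma 3.58.1, R 4.3.3, offset 50, on median spot signals because the files used hold no mean signal), the deposited log2 table, no background filter, and the median over a gene's probes. Counting was tested on simulated data in which only bright genes were changed and background calls were the same on every array. Bounds and changes in dim genes were therefore not covered by it. Python 3.11.15, numpy 2.4.6, pandas 2.3.3 and matplotlib 3.10.9 were used.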

Additional observations from a re-analysis of the deposited data

How the results depend on the processing

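All 30 differences of 2-fold or more in single neuronal genes kept their direction under each of 6 alternatives, and the number still at 2-fold or more was 21 with array median scaling, 23 with quantile normalisation, 16 with normexp, 30 with the deposited log2 table, 30 without the background filter and 27 with a gene's probes combined by their median. Stmn2, Dlg4, Elavl3 and Celf4 in BIO cellulates over myoblasts, and Dlg4 and Th in neurogenic cellulates over myoblasts, dropped below 2-fold with each of the first 3. With normexp, Nefm (neurogenic cellulates over both others), Stmn3, Dcx and Uchl1 dropped too. Nsg1 in BIO cellulates over myoblasts dropped with median scaling, normexp and combined probes and Nsg1 in neurogenic cellulates over myoblasts with quantile normalisation. Camk2a in neurogenic cellulates over myoblasts dropped with median scaling and normexp, Eno2 in BIO cellulates over myoblasts with median scaling, and Dlg4 in both comparisons with combined probes.

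Counts for neurogenic over BIO cellulates, 1 higher and 2 lower, became 3 higher with quantile normalisation, 0 higher with normexp, and 2 higher and 5 lower without the filter. For neurogenic cellulates over myoblasts, the 6 higher became 3 with median scaling, 2 with normexp and 14 without the filter, and the median of 0.25 became -0.48 with median scaling. For BIO cellulates over myoblasts, the 10 higher became 4 with median scaling, 6 with quantile normalisation, 4 with normexp and 16 without the filter, and the 5 lower became 3 with normexp. The median of 0.37 there became -0.35 with median scaling, 0.70 without the filter and 0.72 with probes combined by their median. Without the filter more genes are counted, 43 in each comparison. For the other moves the cause was not tested. No paired analysis was possible because each group had 1 array, which also leaves no replicate to leave out. Genes near background, where the array medians also lie (24.4, 17.9 and 17.1 intensity units in neurogenic cellulates, BIO cellulates and myoblasts), are limited by signal over background.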
